A study of Mus musculus with 8 samples.

Results

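The genes examined here encode the proteins of the cytosolic ribosome. They were chosen by symbol, as protein-coding genes of the mouse annotation (GENCODE M21, build GRCm38) named Rpl or Rps with a number, with Rplp0 to Rplp2 and Rpsa, and without pseudogenes. The symbols alone decided membership, but the family itself was selected on counts of these libraries by group, which were already known. The differences below therefore describe the family and support nothing about its choice. Of 83 genes that fit the rule, 79 had a row among the 23006 rows of the count table, 49 of the large subunit and 30 of the small subunit. Rpl24, Rpl41, Rps12 and Rps27 were not analysed here. All members except Rpl10l passed the filter on low counts, which left 78 tested members, 48 of the large and 30 of the small subunit, among 16876 genes tested.

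The count table came from RNA-seq of wild-type mouse liver, in 8 libraries with 2 in each of 4 groups. SLIT2+APAP mice received the secreted guidance protein SLIT2 at 2 µg per mouse, given into the peritoneum for 3 days, and APAP (acetaminophen) at 400 mg/kg. APAP mice received PBS and the same dose of APAP, SLIT2 mice received SLIT2 only, and control mice received PBS only. Livers were taken 24 h after APAP, and the series asks whether SLIT2 suppresses the liver injury that APAP causes. The labels used here give no strain, sex or age. They do not say either that the paired libraries of each group are different animals, and the spread behind every p-value may thus be technical.

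A ribosome joins a small subunit, which reads the mRNA, to a large subunit, which forms the peptide bond. Each ribosomal protein is normally present once per ribosome, apart from the stalk proteins, and liver cells make their mRNAs in large amounts and in similar proportions. In mammals most of these mRNAs begin at a C followed by a run of pyrimidines, the 5′ terminal oligopyrimidine (TOP) tract, through which mTORC1 and the RNA-binding protein LARP1 control their translation and stability.

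The start of the mRNA carries that shared tract, so start windows are shown for 8 members that differed widely in SLIT2 against control. RefSeq start windows of build GRCm38.p6, with 250 bases before and 50 bases from the annotated start, were matched for 59 of the 79 members. A tract was counted where a C lay within 2 bases of the annotated start and was followed by at least 4 bases that were each C or T. Such a start was found for 19 of the 59 members (32.2%), and for 9.91% of the 27018 genes with a window. Of these 19, the 4 with the lowest and the 4 with the highest log2 fold change in SLIT2 against control are printed from 20 bases before the start to 30 bases from it, 5′ to 3′ on the gene's strand, with the tract in capitals.
Rps27l, chr9:66946066-66946115, plus strand: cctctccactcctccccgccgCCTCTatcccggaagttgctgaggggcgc
Rps6, chr4:86857338-86857387, minus strand: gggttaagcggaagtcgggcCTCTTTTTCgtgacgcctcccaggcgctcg
Rps21, chr2:180257359-180257408, plus strand: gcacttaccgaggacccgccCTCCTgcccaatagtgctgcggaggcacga
Rplp2, chr7:141447631-141447680, plus strand: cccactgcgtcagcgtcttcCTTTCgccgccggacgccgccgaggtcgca
Rpl13a, chr7:45128716-45128765, minus strand: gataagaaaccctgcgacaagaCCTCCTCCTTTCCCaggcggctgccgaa
Rpl38, chr11:114668560-114668609, plus strand: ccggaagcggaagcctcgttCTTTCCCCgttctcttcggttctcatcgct
Rpl14, chr9:120571497-120571546, plus strand: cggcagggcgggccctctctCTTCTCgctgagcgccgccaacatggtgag
Rpl28, chr7:4792945-4792994, plus strand: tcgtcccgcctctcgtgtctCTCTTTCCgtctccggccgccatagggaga

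The tracts of the 4 members with the lowest fold changes were 5 to 9 bases long, and those of the other 4 were 6 to 14 bases long. The tract of 9 bases is that of Rps6, which was among the lowest 4 by its own row, at -3.71. With the counts of an identical pseudogene row added, as described below, Rps6 was at -2.20. Rpl35, with a tract of 11 bases, was at -2.98 and would then stand among the lowest 4 instead. The medians that follow use the members' own rows alone. In SLIT2 against control, the 19 members with a tract at the annotated start had a median log2 fold change of -2.32 (-3.87 to -0.33), and the 39 tested members with a window but no such start had a median of -2.11 (-4.40 to -0.07). For SLIT2+APAP against APAP the same medians were 0.13 (-1.20 to 0.47) with the tract and -0.34 (-2.06 to 3.03) without it. Annotated starts can lie some bases from the main start in liver, so a window without the tract says only that the letters are not there. In the whole 300-base windows, searched on both strands, the ETS factor core CCGGAAG was held by 42.4% of the members with a window and 9.93% of all genes with one. The YY1 core AAGATGG was held by 15.3% of the members and 7.28% of all genes, the SP1 box GGGCGG by 64.4% and 38.2%, and the TATA box TATAAA by 11.9% and 15.7%. CCGGAAG ends with the letters that open AAGATGG, so 1 stretch can hold both.

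Total counts per library ran from 60823534 to 100543754, and the family took between 197730 and 1587559 counts of a library, so counting error was small beside the spread between libraries for all but the rarest members. The 13 mitochondrially encoded genes took 25.1% and 30.3% of the counts in the SLIT2+APAP libraries, 14.9% and 13.4% in the APAP libraries, 60.2% and 69.0% in the SLIT2 libraries, and 16.0% and 17.3% in the control libraries. Hepatocyte markers (11 genes, none at 0 in any library) summed to 73685 and 70535 CPM (gene counts scaled to library size, here by the TMM method) in SLIT2+APAP, 111319 and 90528 in APAP, 19812 and 11701 in SLIT2, and 59293 and 80383 in control. Of these 11, 8 were called lower in SLIT2 against control, where 27.6% of all genes tested and 66.3% of genes averaging at least 100 CPM were called lower. Skeletal muscle markers (12 genes) summed to 1.19 to 9.74 CPM in the 6 libraries that received SLIT2, APAP or both, and to 1120 and 126 CPM in control. These differences move with the groups, and their part in the results on ribosomal proteins was not tested. In bulk liver, fewer cells of a type and less RNA per cell cannot be told apart.

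The family as a whole took a smaller share of the counts in the SLIT2 libraries than in any other library. Its 79 genes held 1.62% and 1.74% of all counts in SLIT2+APAP, 1.80% and 1.60% in APAP, 0.452% and 0.325% in SLIT2, and 1.38% and 1.47% in control. The SLIT2+APAP and APAP libraries overlapped, both lay above the control libraries, and the SLIT2 libraries were lowest. Of the counts outside the mitochondrially encoded genes, the family held 2.17% and 2.5% in SLIT2+APAP, 2.11% and 1.85% in APAP, 1.14% and 1.05% in SLIT2, and 1.64% and 1.78% in control. The order of the SLIT2 and control libraries was the same on that base, with a smaller gap, and there the SLIT2+APAP libraries both lay above the APAP libraries. With 2 libraries a group, a two-sided exact permutation test cannot go below p = 0.333, so these shares were not tested.

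**Figure D1:**
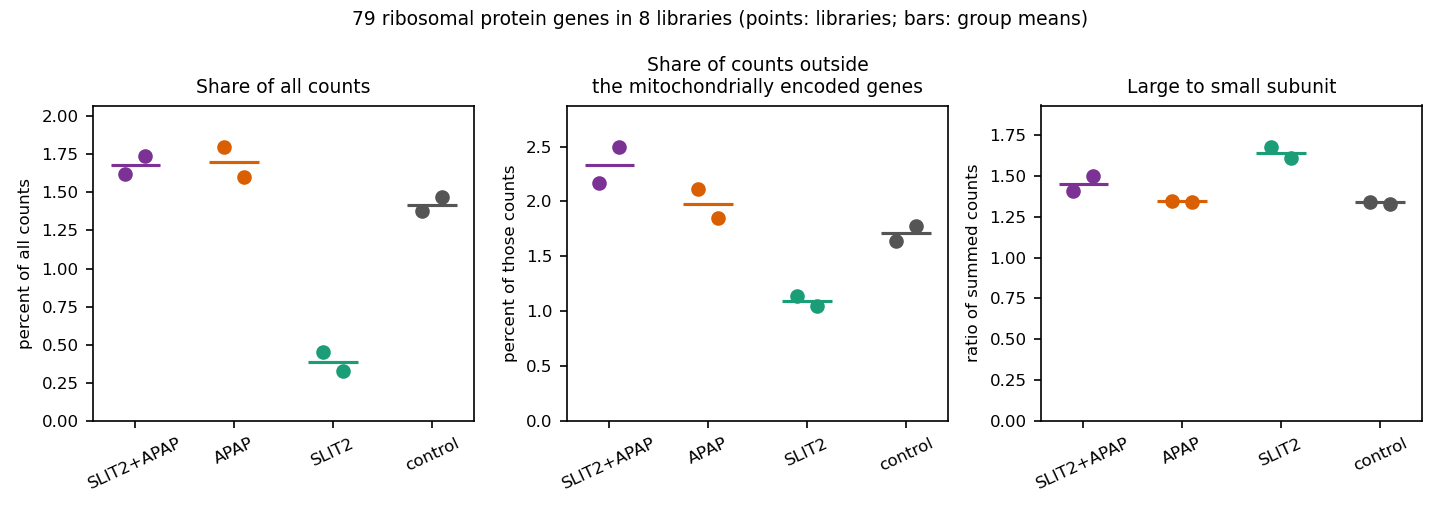
Share of all counts (left), share of the counts outside the mitochondrially encoded genes (middle), both in percent, and ratio of summed large to summed small subunit counts (right) for the 79 genes. Points are libraries and bars are means of 2 libraries; the SLIT2 libraries, at 0.452% and 0.325% of all counts, lie below all others, and their ratios of 1.68 and 1.61 lie above all others.

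Large and small subunit genes did not keep the same proportion in every group. The ratio of summed large to summed small subunit counts was 1.41 and 1.5 in SLIT2+APAP, 1.35 and 1.34 in APAP, 1.68 and 1.61 in SLIT2, and 1.34 and 1.33 in control. The SLIT2 libraries were highest, the SLIT2+APAP libraries were next and overlapped neither SLIT2 nor APAP, and the APAP and control libraries lay together. Per kilobase of transcript the ratio was 1.39 and 1.51 in SLIT2+APAP, 1.33 and 1.30 in APAP, 1.77 and 1.70 in SLIT2, and 1.33 and 1.33 in control. Without the 3 members of highest count, the SLIT2+APAP ratios (1.56 and 1.66) and APAP ratios (1.59 and 1.54) overlapped, while the SLIT2 ratios (2.23 and 2.07) stayed above the control ratios (1.48 and 1.51).

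Within the liver's set the members differed widely in level. Per kilobase of transcript, mean control levels were highest for Rplp1, a stalk protein, at 1039 CPM per kb, and among the next highest were Rps18 at 620, Rpl13a at 608 and Rps15 at 579 CPM per kb. The lowest 5 in control were Rpl12 at 9.58, Rpl27 at 9.48, the muscle paralog Rpl3l at 2.44, Rpl39l at 1.30 and Rpl10l at 0.0528 CPM per kb. The SD of log2 CPM per kb over the members lay between 1.53 and 1.63 in all 8 libraries. The ratio of the 90th to the 10th percentile of CPM per kb was 23.9 and 22.1 in SLIT2+APAP, 19.5 and 20.6 in APAP, 21 and 21 in SLIT2, and 16.8 and 18.6 in control, so the control libraries were lowest on that measure. The SD and this ratio used the members' own rows alone. All levels per kb depend on the 1 transcript chosen per gene, the longest of its preferred class, such as 2989 bases for Rpl18. With identical pseudogene rows added, as described next, Rpl27 was at 110 CPM per kb in control. Rps6 then went from 22.7 to 344, Rps13 from 11.2 to 241, Rpl31 from 18.4 to 241 and Rpl15 from 27.0 to 117 CPM per kb. The SD and the ratio were not computed with those rows added, so they hold for the members' own rows only.

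For 8 members, most or part of the counts sat in the row of a processed copy that was identical to the gene's own mRNA wherever aligned. The table held 155 rows named as pseudogenes of the family, of which 9 averaged at least 1000 counts and together held 98.5% of all counts in such rows. A parent gene had a row for 8 of these 9, the exception being Rps12-ps3, and in each of the 8 pairs the copy matched a protein-coding transcript of its parent at every aligned base, over 378 to 750 bases that included the whole coding sequence. Each parent transcript also had bases outside the aligned part, as Rps16 with 441 of 1109 bases aligned. The first 60 coding bases of 2 parents are shown, start codon in capitals, since the same letters stand in the copy.
Rpl10a (chromosome 17, plus strand) and Rpl10a-ps1 (chr1:64994545-64994604, minus strand): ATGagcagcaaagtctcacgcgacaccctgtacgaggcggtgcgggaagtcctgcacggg
Rps6 (chromosome 4, minus strand) and Rps6-ps4 (chr2:75191763-75191822, minus strand): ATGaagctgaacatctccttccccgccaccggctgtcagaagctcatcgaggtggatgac
These sequences are from GENCODE M21 on GRCm38, and the sources used here do not say how reads that fit several sites were counted. The values of the parent rows alone are therefore uncertain for Rpl10, Rpl10a, Rpl15, Rpl27, Rpl31, Rps6, Rps13 and Rps16. Only rows named as pseudogenes of the family and averaging at least 1000 counts were compared with their parents. Copies under other names were not looked for, so the other members were not shown to be free of this limit.

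The division of counts between gene and copy was not constant over the groups. Rpl10a, a protein of the mobile L1 stalk, shared its counts with Rpl10a-ps1, which held 0.174% and 0% of the pair's counts in SLIT2+APAP, 39.1% and 47.9% in APAP, 0% and 0% in SLIT2, and 35.2% and 35.0% in control. In counts, Rpl10a-ps1 had 23 and 0 in SLIT2+APAP, 9064 and 9840 in APAP, 0 and 0 in SLIT2, and 6645 and 7124 in control. No other row of the table had at least 1000 counts in each of the 4 libraries without SLIT2 and at most 30 in each of the 4 with it, and 0 rows had the opposite pattern. That pattern was described from Rpl10a-ps1 itself, so the absence of other rows holds for these cutoffs only. With the SLIT2 group set to 3 counts in all, the floor that a count of 0 allows, Rpl10a-ps1 was at least 3155-fold lower in SLIT2 than in control. The copy and the gene are identical over all 654 aligned bases of the annotation, so these values give only the row in which counts were placed. Why the division differed between the groups was not tested.

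Rps16-ps2 held 76.1% and 70.3% of its pair's counts in SLIT2+APAP, 75.8% and 75.4% in APAP, 41.0% and 42.8% in SLIT2, and 77.4% and 77.1% in control. Rpl10-ps3 held 56.3% and 56.4% in SLIT2+APAP, 76.8% and 82.7% in APAP, 31.9% and 42.8% in SLIT2, and 73.3% and 67.0% in control. For Rps6, the kinase substrate that marks mTORC1 activity, the copy held between 92.2% and 98.0% of the pair's counts in every library, and for Rps13 between 89.3% and 96.1%. The SLIT2 libraries were thus lowest for the Rps16 and Rpl10 pairs, while for the Rps6 pair they were highest, at 98.0% and 97.3%.

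**Figure D2:**
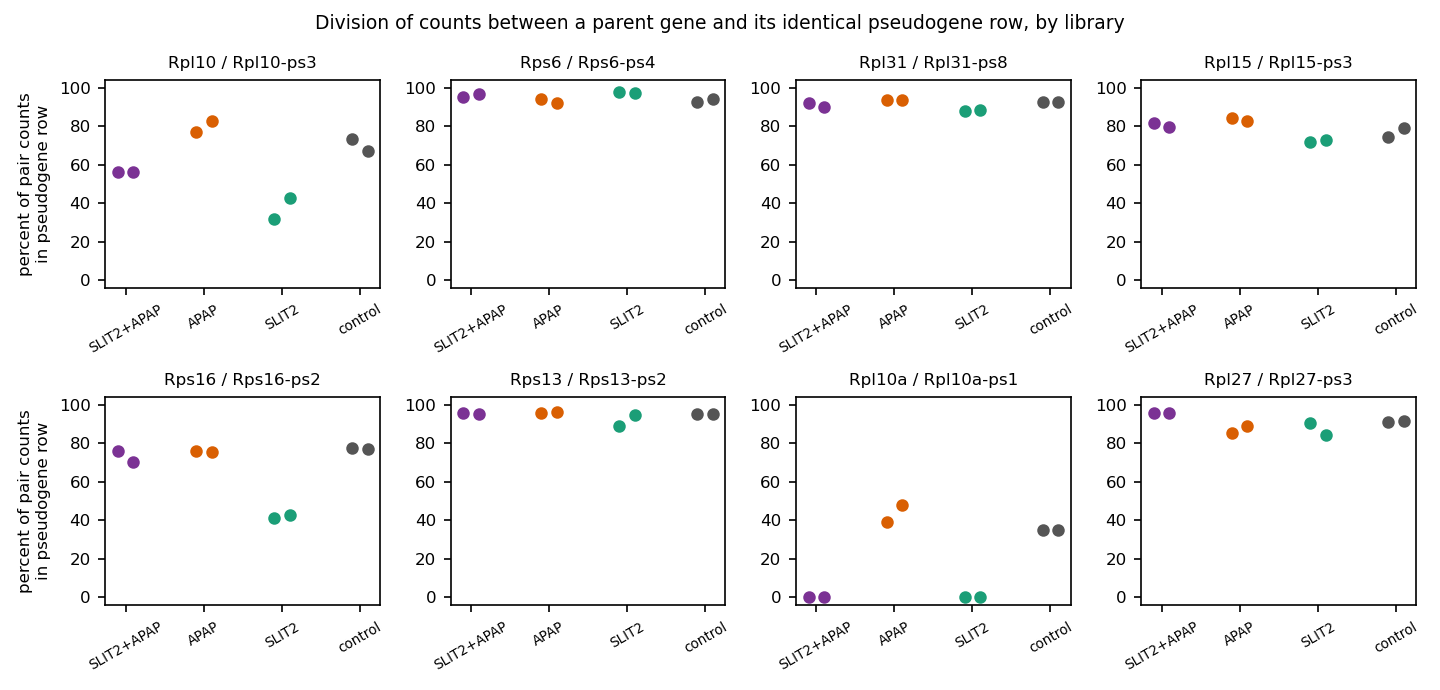
Percent of the summed counts of a parent gene and its identical pseudogene row that were placed in the pseudogene row, for 8 pairs, with 1 point per library in 4 groups. For Rpl10a-ps1 all 4 SLIT2-treated libraries lie at or near 0 and the other 4 lie between 35.0% and 47.9%; for the Rps6 pair all libraries lie between 92.2% and 98.0%.

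In SLIT2 against control, every tested member had a lower mean in SLIT2. Of 78 members, 71 were lower and 0 were higher at an adjusted p under 0.05 (edgeR's quasi-likelihood test, Benjamini-Hochberg over all genes), where 27.6% of all genes tested were called lower. Among the 917 genes averaging at least 100 CPM, members included, 66.3% were called lower, which is the nearer background for genes this abundant, and their median log2 fold change was -1.53. The members' median was -2.28, -2.06 over the large subunit (42 of 48 lower) and -2.68 over the small subunit (29 of 30 lower), and the median over all genes was -0.0047. When libraries were scaled by their counts outside the mitochondrially encoded genes, a setting chosen after seeing the data, 46 members were lower and 7 higher. Of 17506 genes tested on that scale, 1462 were called lower and 9919 higher. The members' median was -0.92, and the median over all genes was 1.42. Relative to the median of all genes, the members' median was thus about as low under both scalings, but the direction of single members that differed least was not the same.

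Small subunit genes had the largest differences. Rps7 had 5.22 and 8.76 CPM in SLIT2 and 150 and 144 CPM in control, and its log2 fold change was -4.40 (SE 0.37, edgeR adjusted p = 0.000112). Rps23, which sits at the decoding centre, had 11.5 and 11.5 CPM in SLIT2 and 203 and 195 CPM in control (log2 fold change -4.12, SE 0.22). Rps3a1 had 15.3 and 16.5 CPM in SLIT2 and 265 and 262 CPM in control (log2 fold change -4.05, SE 0.23). In each of these genes the groups were far apart, and the SLIT2 libraries were close together for Rps23 and Rps3a1 and less so for Rps7. Rps14, a protein needed to mature the small subunit, had 27.8 and 25.3 CPM in SLIT2 and 358 and 312 CPM in control (log2 fold change -3.66), and Rps27l, a p53-inducible paralog of Rps27, had 20.7 and 9.0 CPM in SLIT2 and 231 and 203 CPM in control (log2 fold change -3.87).

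Other small subunit genes fell less. Rps19, the gene most often mutated in the human disorder Diamond-Blackfan anaemia, had 67.8 and 60.9 CPM in SLIT2 and 166 and 151 CPM in control (log2 fold change -1.30). Rpsa, also known as the laminin receptor precursor, had 340 and 263 CPM in SLIT2 and 604 and 598 CPM in control (log2 fold change -1.0). Rps15, among the 5 highest members per kilobase in control, had a log2 fold change of -1.21, and Rps3, which lies at the mRNA entry of the small subunit, of -2.38. By their own rows, the 30 small subunit genes thus ranged from -4.40 for Rps7 to -0.50 for Rps16. With its copy added, Rps16 was at -1.85, and Rpsa at -1.0 was then the highest.

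Among the large subunit genes, Rpl4, which lines the peptide exit tunnel, had the lowest log2 fold change of those above 5 CPM. Rpl4 had 23.7 and 19.9 CPM in SLIT2 and 315 and 266 CPM in control (log2 fold change -3.73, SE 0.25, edgeR adjusted p = 9.83e-05). Of the stalk proteins, which recruit the elongation factors, Rplp0 had 41.8 and 35.7 CPM in SLIT2 and 276 and 245 CPM in control (log2 fold change -2.75). Rplp1 had a log2 fold change of -2.78 and Rplp2 of -3.16, so the 3 stalk genes differed by similar amounts. Rpl13a, known for silencing translation in interferon-treated cells, had 295 and 240 CPM in SLIT2 and 671 and 601 CPM in control (log2 fold change -1.25).

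Rpl5 and Rpl11, which as free proteins bind Mdm2 and so stabilise p53, differed from each other. Rpl5 had 31.3 and 29.8 CPM in SLIT2 and 44.9 and 36.6 CPM in control (log2 fold change -0.42, SE 0.23, edgeR adjusted p = 0.151). Rpl11 had 33.9 and 27.2 CPM in SLIT2 and 221 and 222 CPM in control (log2 fold change -2.86, SE 0.24). The 7 members not called were Rpl10a, Rpl28, Rpl12, Rpl5, Rps16, Rpl39l and Rpl27, with log2 fold changes from -0.073 to -0.75. With each copy's counts added to its parent, an alternative chosen after seeing the data, Rpl10a at -0.70, Rps16 at -1.85 and Rpl27 at -1.22 passed the threshold as lower, and 74 of 78 members did. The 4 that remained uncalled were Rpl5 at -0.42, Rpl12, a protein of the stalk base, at -0.35, Rpl28 at -0.33 and Rpl39l at -0.60. Scaled by the counts outside the mitochondrially encoded genes, 7 members were called higher, Rpl10a at 1.29, Rpl12 at 1.01, Rpl28 at 1.01, Rpl5 at 0.95, Rps16 at 0.86, Rpl14 at 0.63 and Rpl38 at 0.62.

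Rps6 with its copy had 67.0 and 64.2 CPM in SLIT2 and 284 and 320 CPM in control. The log2 fold change of this sum was -2.20 (SE 0.23), while that of the Rps6 row alone was -3.71. The 8 sums ranged from -2.75 for Rpl31 to -0.70 for Rpl10a, and all 8 passed the threshold as lower.

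**Figure D3:**
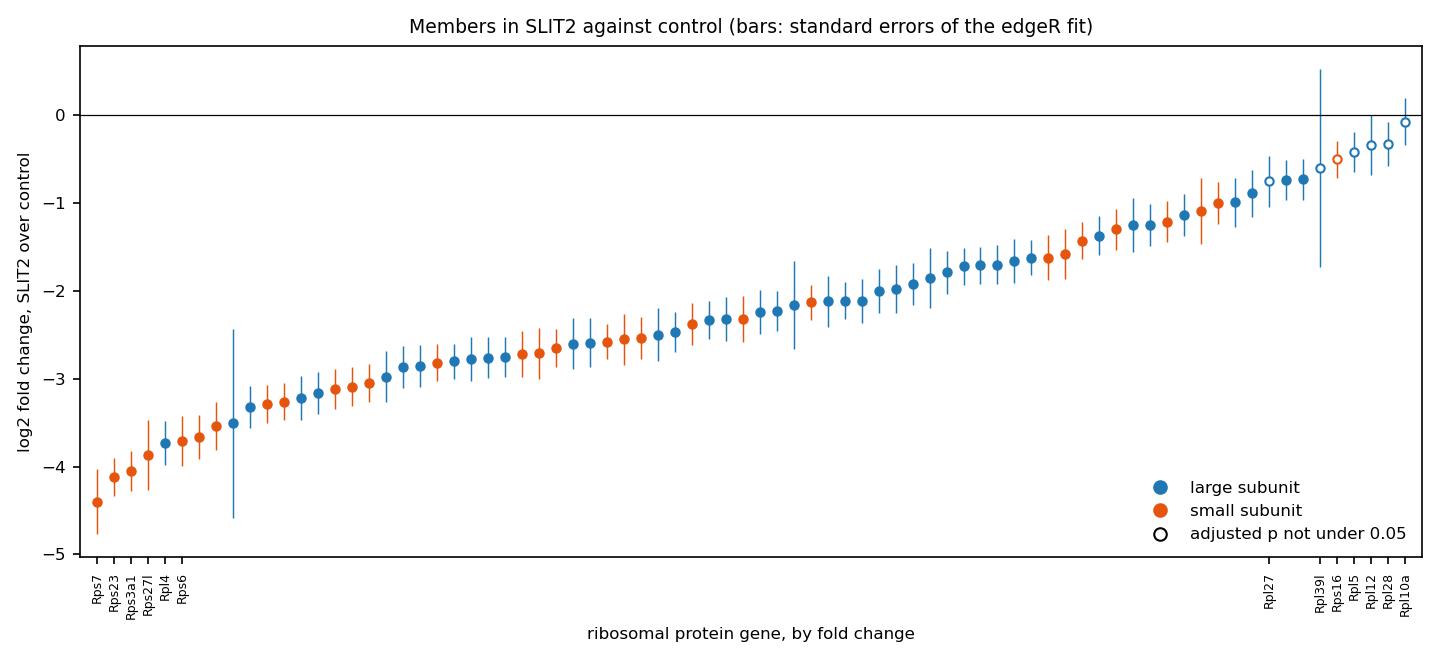
Log2 fold change in SLIT2 over control (vertical axis) of the 78 tested members, in order of the fold change (horizontal axis), with standard errors of the edgeR fit. Blue marks the large and orange the small subunit, open points mark the 7 members that were not called, and the lowest 6 and these 7 are named; all values are below 0, from -4.40 for Rps7 to -0.073 for Rpl10a.

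In APAP against control, the members differed little and in both directions. Of 78 members, 0 were called by edgeR (19 had an unadjusted p under 0.05), where 0.788% of all genes tested were called in either direction, and DESeq2 called 3. The members' median log2 fold change was 0.13 and that of all genes 0.046. Rps16 had the highest log2 fold change, 0.86 (SE 0.21, edgeR adjusted p = 0.0776), with 102 and 77.2 CPM in APAP and 47.1 and 51.6 CPM in control. The APAP libraries of Rps16 lay above both control libraries. Rpl37 at 0.71, Rps2 at 0.69 and Rpl12 at 0.69 came next, and the lowest values among members above 5 CPM were -0.58 for Rpl15, -0.53 for Rpl31 and -0.52 for Rpl26. With their copies added, Rpl15 was at -0.10 and Rpl31 at -0.30. Without APAP library 4, 12 members were called higher, without control library 2 the count was 1 lower, and without APAP library 3 the median was -0.079.

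In SLIT2+APAP against APAP, most members stayed uncalled and a group led by Rpl4 and Rpl3 was lower. Of 78 members, 12 were called lower and 1 higher by edgeR, where 7.64% of all genes were called lower and 6.29% higher. Among genes averaging at least 100 CPM, 12.3% were called lower and 4.47% higher, with a median log2 fold change of -0.20, so the members' share called lower was near that of genes this abundant. The median log2 fold change was -0.25 over the members, -0.14 over the large and -0.37 over the small subunit, and -0.060 over all genes. Rpl4 had 119 and 96.6 CPM in SLIT2+APAP and 464 and 434 CPM in APAP (SE 0.24, log2 fold change -2.06, adjusted p by edgeR = 0.00538). Rpl3, which reaches into the peptidyl transferase centre, had 67.7 and 62.9 CPM in SLIT2+APAP and 188 and 224 CPM in APAP (log2 fold change -1.66, SE 0.21). Rplp0 had 167 and 141 CPM in SLIT2+APAP and 420 and 384 CPM in APAP (log2 fold change -1.38). In these 3 genes the groups did not overlap, and the SLIT2+APAP libraries also lay below both control libraries.

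The other genes called lower were Rps4x, Rplp2, Rps10, Rps3a1, Rps6, Rps9, Rpl9, Rpl29 and Rpl7l1, with log2 fold changes from -1.27 to -0.81. All 12 were also called lower in SLIT2 against control, as were 71 of the 78 members. The 1 gene called higher was Rpl21, with 286 and 312 CPM in SLIT2+APAP and 173 and 126 CPM in APAP (SE 0.27, log2 fold change 1.0, adjusted p by edgeR = 0.0482). By their own rows, next highest among members above 5 CPM were Rpl31 at 0.73, Rpl10 at 0.68 and Rpl26 at 0.54, none of which was called. With copies added, Rpl10 was at -0.41 and Rpl31 at 0.28, while Rpl27 went from -0.78 to 0.91 (edgeR adjusted p = 0.064). The directions of Rpl10 and Rpl27 thus turned when the identical row was counted. Rps6 with its copy was at -0.21 (edgeR adjusted p = 0.537) and was no longer called, and in that fit Rpl7l1, to which no counts were added, also missed the threshold (edgeR adjusted p = 0.0501), which left 10 members lower.

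These calls rested on the joint fit to all 8 libraries. With only the 4 libraries compared, 0 members and 1 gene of the whole table were called. The count was 0 without SLIT2+APAP library 2, 1 without SLIT2+APAP library 1, 6 without either control library, and 21 without APAP library 4. Scaled by library totals alone it was 5, and scaled by the counts outside the mitochondrially encoded genes 8 members were higher and 4 lower, Rpl4 (-1.63), Rpl3 (-1.23), Rplp0 (-0.95) and Rps4x (-0.84) being the lower. On that scale the median was 0.20 over the members and 0.38 over all genes, and 2318 of 17506 genes tested were called higher and 577 lower. With TMM scaling and without APAP library 3, the members' median was 0.059.

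In SLIT2+APAP against control, the family was close to control level. The median log2 fold change was -0.093 over the members and 0.038 over all genes. Of 78 members, 2 were called lower and 0 higher by edgeR, where 1.45% of all genes were called lower. Among genes averaging at least 100 CPM, 4.47% were called lower and the median was -0.22. Rpl4 had 119 and 96.6 CPM in SLIT2+APAP and 315 and 266 CPM in control (log2 fold change -1.43, SE 0.23, edgeR adjusted p = 0.0323), and Rpl3 had a log2 fold change of -1.19 (edgeR adjusted p = 0.0379). Neither gene's groups overlapped. Among members above 5 CPM that were not called, Rps7 at -1.12 and Rps27a at -0.93 were lowest by their own rows. Rpl28 at 0.73 and Rpl14 at 0.64 were highest. With its copy added, Rpl27 went from -0.28 to 0.80 (edgeR adjusted p = 0.16), above Rpl28. The members' median came to 0.21 under library totals only and 0.41 under totals outside the mitochondrially encoded genes, where the medians over all genes were 0.34 and 0.55. DESeq2 called 8 members, and the edgeR count was 0 without control library 1, without either SLIT2 library or without either SLIT2+APAP library, 1 without control library 2, and 8 without either APAP library.

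The SLIT2 differences with and without APAP were set against each other in the interaction, the log2 fold change of SLIT2+APAP over APAP minus that of SLIT2 over control. It was above 0 with an adjusted p under 0.05 for 58 of 78 members and below 0 for none (67 had an unadjusted p under 0.05, and DESeq2 called 65), where 15.5% of all genes and 49.6% of genes averaging at least 100 CPM were called above 0. The median interaction was 1.96 over the members, 1.90 over the large and 2.41 over the small subunit, -0.090 over all genes and 1.28 over the genes averaging at least 100 CPM. The same quantity can be read as the APAP difference with SLIT2, whose median was 2.06 over the members, minus the APAP difference without it, whose median was 0.13. Rps27l had the largest interaction among members above 5 CPM, 4.04 (SE 0.52, edgeR adjusted p = 0.00392). Rps23 at 3.71, Rps14 at 3.60, Rps7 at 3.43, Rps20 at 3.41 and Rpl39 at 3.27 followed. Rps16 at -0.14 and Rpl27 at -0.029 had the lowest values, but with their copies added they were at 1.09 and 2.13. Scaled by the counts outside the mitochondrially encoded genes, 39 members were called above 0 and 1 below. On that scale 966 of 17506 genes tested were called above 0 and 5429 below, and the median over all genes was -1.06.

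Over the 78 members, the fold changes of the comparisons with no shared library, SLIT2 against control and SLIT2+APAP against APAP, had a Pearson r of 0.39 and a Spearman rho of 0.34. Over all 16876 genes tested the same values were 0.38 and 0.39, so the members were no closer in this respect than genes at large. These are descriptions across genes, which share libraries and depth and are not independent. Among the members, rho between the fold change in SLIT2 against control and GC content was 0.17 and with log2 transcript length 0.083.

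Paralogs known from other tissues had few counts. Rpl3l, a paralog of Rpl3 made in striated muscle, had 5 and 11 counts in SLIT2+APAP, 27 and 5 in APAP, 21 and 15 in SLIT2, and 506 and 64 in control. It was called lower in SLIT2 against control (log2 fold change -3.51, SE 1.08, edgeR adjusted p = 0.0255), but without control library 1 it was at -1.24 (edgeR adjusted p = 0.284), and it was not called without either SLIT2 library (edgeR adjusted p = 0.121 and 0.129). The control libraries that carried Rpl3l also carried the muscle markers, at 1120 CPM in control library 1 and 126 CPM in control library 2, and the part of muscle RNA in this value was not tested. Rpl39l, whose protein is known from testis, had 75 and 2 counts in SLIT2+APAP, 7 and 3 in APAP, 13 and 68 in SLIT2, and 66 and 125 in control, and was called in no comparison. Rpl10l, also known from testis, had 8 counts or fewer in every library and was not tested.

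Paralogs made in liver were also called lower in SLIT2 against control. Rpl22l1 had 10.8 and 7.08 CPM in SLIT2 and 27.2 and 37.3 CPM in control (log2 fold change -1.85), and its partner Rpl22 had 28.8 and 23.9 CPM in SLIT2 and 142 and 122 CPM in control (log2 fold change -2.33). Rpl7l1 was at -1.92 and Rpl7 at -2.76. Rpl39 was at -3.32 with 23.0 and 17.4 CPM in SLIT2 and 207 and 196 CPM in control. Rps27a, which encodes ubiquitin joined to a ribosomal protein, had 40.5 and 41.7 CPM in SLIT2 and 317 and 225 CPM in control (log2 fold change -2.72), and 125 and 160 CPM in SLIT2+APAP against 274 and 244 CPM in APAP, a log2 fold change of -0.86 (adjusted p by edgeR = 0.0558).

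Genes that work with the ribosome were described beside the family from lists drawn up with earlier results of these data known. Of all genes tested, 27.6% were called lower in SLIT2 against control and 7.64% in SLIT2+APAP against APAP. Among genes averaging at least 100 CPM these shares were 66.3% and 12.3%. In APAP against control, 0.788% of all genes tested were called in either direction. Of 4 ribosomal protein genes whose symbols fall outside the rule, all were lower in SLIT2 against control, among them Rpl36al at -2.65 and the scaffold protein Rack1 at -2.62, and 0 were called in SLIT2+APAP against APAP (lowest Rack1 at -0.31). Of 22 translation factors and other genes with TOP mRNAs, 19 were lower and 0 higher in SLIT2 against control with a median of -2.04, led by Btf3 at -3.44, Cct4 at -2.85 and Eef1b2 at -2.68. Of these 22, 9 were lower and 0 higher in SLIT2+APAP against APAP with a median of -0.57, among them the elongation factors Eef2 at -2.29 and Eef1b2 at -1.30. In APAP against control, 0 of the 22 were called, and Eef2 was at 1.29 (edgeR adjusted p = 0.055).

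The host RNAs of small nucleolar RNAs, which also begin with a TOP tract but code for no protein, had rows for 3 of the 8 listed. Gas5 was at -0.36, Zfas1 at 0.25 and Snhg3 at 0.15 in SLIT2 against control, and 0 of the 3 were called in any comparison. Of 56 ribosome biogenesis genes with rows, 25 were lower and 8 higher in SLIT2 against control with a median of -0.60. Of all genes tested, 27.6% were called lower and 27.3% higher there. Among the 25 were Nop10 at -3.18 and Nhp2 at -3.10, proteins of the particles that modify ribosomal RNA. Between SLIT2+APAP and APAP, 24 were lower and 1 higher in SLIT2+APAP with a median of -0.92. Of all genes tested, 7.64% were called lower and 6.29% higher in that comparison. Rrp12, an export factor for ribosomal subunits, was at -3.52, and Eif6, which keeps the subunits apart until maturation, at -2.55. In APAP against control, 1 of the 56 was called, Eif6 at 1.53 (edgeR adjusted p = 0.0357). The ribosomal proteins called lower were 71 of 78 in SLIT2 against control and 12 of 78 in SLIT2+APAP against APAP, and the difference between the lists was not tested.

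Of 24 mTORC1, LARP1 and other regulators of these mRNAs, 5 were higher and 6 lower in SLIT2 against control, with a median of 0.024, where 27.3% of all genes tested were called higher and 27.6% lower. Rps6kb2, a kinase of Rps6, was at 1.84, and the cap-binding protein Eif4e at -2.42. Between SLIT2+APAP and APAP, 1 was higher and 5 were lower in SLIT2+APAP, where 6.29% of all genes tested were called higher and 7.64% lower. Eif4ebp2, a repressor of Eif4e, was at -2.71, Eif4g1 at -1.48, and Myc, a transcriptional activator of ribosome genes, at -4.28 (SE 0.88, edgeR adjusted p = 0.0214). In APAP against control, Eif4ebp2 was called higher at 2.00, and Myc was at 4.15 (edgeR adjusted p = 0.0652).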

How the data were processed

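Gene counts of 8 mouse liver libraries, 2 per group, were used as deposited: whole-number counts per Ensembl gene, not scaled. Per the submitters' processing notes, mm10, Cuffdiff 2.2.1, Cufflinks and STAR 2.5.4 were used, in roles not stated, and the labels' protocols name a directional library kit. The counting tool, its strand setting and its treatment of multiply mapped reads are not stated there. Counts longer than 6 digits number 93, and 72 of them end in 0, which fits rounding; no member exceeds 81378. GENCODE M21 (GRCm38) matched 22341 rows (97.1%).

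In R 4.3.3, edgeR 4.0.16 kept genes with filterByExpr, scaled libraries by TMM and fitted its quasi-likelihood model, a mean for each group, to all 8 libraries (4 residual degrees of freedom), with adjustment over all 16876 genes and calls at 0.05. CPM use TMM-scaled sizes; CPM per kb divide by 1 transcript per gene. Counts placed on antisense or overlapping genes were not separated. Intervals from counting would cover counting error only. Fits were tested on simulated counts. Alternatives included DESeq2 1.42.0, other scalings and filters, GC and length offsets, each library left out, and, added after seeing the data, pseudogene counts added to parents and totals outside the mitochondrially encoded genes. The members and the 15 other lists (5 of pathways, 10 of cell type markers) were chosen with earlier results of these data known. Named members were the 6 largest changes per direction and comparison at 5 CPM or more, paralogs, members of known role and the 5 extremes of level (1 of which is not reported here), with every member called in SLIT2+APAP against APAP or uncalled in SLIT2 against control added after their values were seen; from other lists up to 3 genes per comparison with the smallest p. Of the marker lists, the hepatocyte and muscle lists are given in the text and the other 8 in the closing section. Sequences were read from RefSeq windows and GENCODE transcripts, aligned with Biopython 1.88.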

Additional observations from a re-analysis of the deposited data

Results flagged for a closer look

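The SLIT2 effect differed with and without APAP for 58 of the 78 tested members, by the interaction term of the edgeR fit (adjusted p under 0.05). All 58 were above 0, where 15.5% of all genes tested and 49.6% of genes averaging at least 100 CPM were called above 0. Among members named by size of effect, the interaction was 4.04 for Rps27l, 3.71 for Rps23, 3.6 for Rps14, 3.43 for Rps7, 3.41 for Rps20 and 3.27 for Rpl39, all on the log2 scale and all above 0. Each of these 6 had its lowest 2 libraries in the SLIT2 group. The cause of the difference was not tested.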

How the results depend on the processing

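In SLIT2 against control, between 53 and 75 members were called under every alternative run, and the median came to -2.15 under library totals only or protein-coding genes only, -1.75 with at least 10 CPM in 2 libraries, -1.99 with length offsets, -0.92 with totals outside the mitochondrially encoded genes (7 higher, 46 lower), and -2.48 to -2.18 with 1 library left out. Under totals outside the mitochondrially encoded genes these members turned from below to above 0: Rpl10 0.093, Rpl10a 1.29, Rpl12 1.01, Rpl13a 0.11, Rpl14 0.63, Rpl21 0.45, Rpl28 1.01, Rpl36 0.37, Rpl38 0.62, Rpl5 0.95, Rpl8 0.21, Rps13 0.25, Rps15 0.15, Rps16 0.86, Rps19 0.062 and Rpsa 0.36, and, called under neither scaling, Rpl27 0.60 and Rpl39l 0.76. With library totals only, the median of all genes lay between 0.11 and 0.34 in the 4 comparisons of groups.

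In APAP against control, the count was 0 to 12 with 1 library left out and 3 with DESeq2; the median came to 0.26 under library totals only, 0.28 with length offsets and -0.079 to 0.29 with 1 library left out. In SLIT2+APAP against APAP, the count was 5 with library totals only, 0 with only the libraries compared (fewer residual degrees of freedom) and 0 to 21 with 1 library left out; the median came to -0.052 under library totals only, -0.12 with GC offsets, 0.20 with totals outside the mitochondrially encoded genes and -0.41 to 0.059 with 1 library left out. In SLIT2+APAP against control, the count was 0 with library totals only or without the SLIT2 libraries, 8 with DESeq2, 18 with only the libraries compared, 1 with GC or length offsets, 6 with totals outside the mitochondrially encoded genes and 0 to 8 with 1 library left out; the median came to 0.21 under library totals only and 0.41 with totals outside the mitochondrially encoded genes. For the interaction, the count was 41 to 68 with 1 library left out, and the median 1.47 with at least 10 CPM in 2 libraries, 2.13 with GC offsets, 1.69 with length offsets, 1.06 with totals outside the mitochondrially encoded genes and 1.86 to 2.36 with 1 library left out; with pseudogene counts added, Rpl27 turned to 2.13 and Rps16 to 1.09. The cause of these shifts was not tested.

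Replicate numbers 1 and 2 are shared by 3 groups, but residuals of libraries with the same number correlated at 0.075, -0.071 and -0.015, so the numbers gave no sign of pairing. With a replicate block, 73 members were called in SLIT2 against control and 8 in SLIT2+APAP against control; the same 6 libraries without the block gave 73 and 9. Depth limits Rpl10l, Rpl3l and Rpl39l, and reads that lie within the identical bases cannot be assigned to a parent gene or its copy.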

Other observations

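The other marker lists gave the following in SLIT2 against control, where 27.3% of all genes tested were called higher and 27.6% lower. Macrophage markers were lower for 7 of 10 (C1qa at -3.33, Vsig4 at -2.97), erythroid markers for 5 of 5 tested (Hbb-bt at -4.61) and endothelial markers for 3 of 8, with 1 higher. Neutrophil markers were higher for 3 of 8 tested (Cxcr2 at 4.01, Mpo at 3.66) and lymphocyte markers for 4 of 11 tested (Cd3d at 3.02). Dividing cell markers were higher for 3 of 8 (Birc5 at 3.17), with 1 lower (Cdk1 at -1.67). Stellate cell markers were lower for 1 of 8, and of 5 cholangiocyte markers tested 2 were lower and 1 was higher. Neutrophil markers summed to 37.6 and 33.8 CPM in SLIT2 and 3.65 and 4.67 CPM in control. Of the 10 neutrophil markers, 4 had 0 counts in each SLIT2 library, and 1 and 3 had 0 counts in the control libraries. The sums thus do not describe every marker of that list. Dividing cell markers summed to 50.2 and 50.1 CPM in SLIT2 and 9.34 and 10.2 CPM in control. Their part in the differences of the ribosomal proteins was not tested.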
